A study of Drosophila melanogaster with 48 samples.

Results

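The asymmetric division machinery is represented here by 10 genes of 17257 whose transcripts were summed: insc and pins, mira and pon, brat, numb and stau, and baz, par-6 and aPKC. They were listed by name as genes of neuroblast asymmetric division, with earlier results of these libraries known. The study sequenced RNA of formaldehyde-fixed cells sorted from Drosophila embryos, giving 48 libraries in 24 groups of 2 biological replicates. Cells with and without each of 5 markers were collected, so that 12 pairs of groups can be compared, each at 1 time after egg laying.

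The Ind-positive cells of the intermediate column carried an ind enhancer reporter, ind_1.4::dsRed at 4-6h and ind_1.4::GFP at 6-8h. The Vnd-positive cells of the ventral column carried vnd_743::dsRed at 4-6h and 6-8h. These columns are stripes of neurogenic ectoderm, and a sort on a reporter follows the enhancer and the stability of the reporter protein. Neuroblasts with ganglion mother cells (Pros, 4-6h and 6-8h), neurons (Elav) and glia (Repo, both at 6-8h, 8-10h and 18-22h) were stained for the endogenous protein. Pros cells, 8-10h and 18-22h Repo cells and 18-22h Elav cells came from the line vnd-lexA/VC:FNLDD, 6-8h Repo cells from ind_1.4::GFP and 8-10h Elav cells from yw. In 6-8h Elav cells, replicate 1 came from ind_1.4::GFP and replicate 2 from yw, in both fractions. All lines share a yellow-white background, and each marker-negative group came from the same line as its marker-positive group. Negative cells are the remaining cells of the embryo and are not one cell type.

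A neuroblast divides into a new neuroblast and a smaller ganglion mother cell, and does so by placing proteins at opposite poles before it divides. Bazooka (baz, Par-3), Par-6 and atypical protein kinase C (aPKC) form the apical Par complex. Inscuteable (insc) binds Bazooka and recruits Partner of inscuteable (pins), which connects the apical side to the spindle. Miranda (mira) and Partner of numb (pon) are basal adaptors. Miranda carries the translational repressor Brain tumor (brat), the RNA-binding protein Staufen (stau) and the transcription factor Prospero into the daughter cell, and Partner of numb assists the Notch inhibitor Numb. The Par proteins, pins and numb also act in epithelia and other polarized cells, and Staufen is known for RNA localization in the oocyte.

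Total estimated reads ranged from 18120862 to 113452420 per library. All 10 genes passed the filter on low counts. The sorting genes pros, elav, repo, ind and vnd were each enriched in every sort on their own product or enhancer. Each was also called enriched in other sorts. On the log2 scale ind was at 2.45 in 4-6h Pros, against 2.16 in 4-6h Ind, but at 3.47 and 4.86 at 6-8h. For vnd the values were 2.16 in 4-6h Pros, against 1.68 in 4-6h Vnd, and 3.22 and 2.75 at 6-8h. elav was at 4.03 in 4-6h Pros, against 3.97 in 6-8h Elav, and repo at 3.76 in 6-8h Elav, against 7.86 in 6-8h Repo. The correlation of log expression between replicates ranged from 0.831 (18-22h Elav-negative cells) to 0.983 (6-8h Vnd-positive cells). The median level of 160 chemosensory receptor genes, which few embryonic cells should express, ranged from 0.024 to 18.8 TPM and was highest in 8-10h Repo-positive replicate 2 and 8-10h Elav-positive replicate 2. Levels below are gene TPM (a transcript share, comparable between genes because length is taken out). Fold changes are log2 values from read counts scaled by TMM. A gene was called where its log2 fold change lay beyond 1 in either direction with an adjusted p under 0.05. In such sorted samples, fewer cells of a type and less RNA per cell cannot be told apart.

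**Figure D1:**
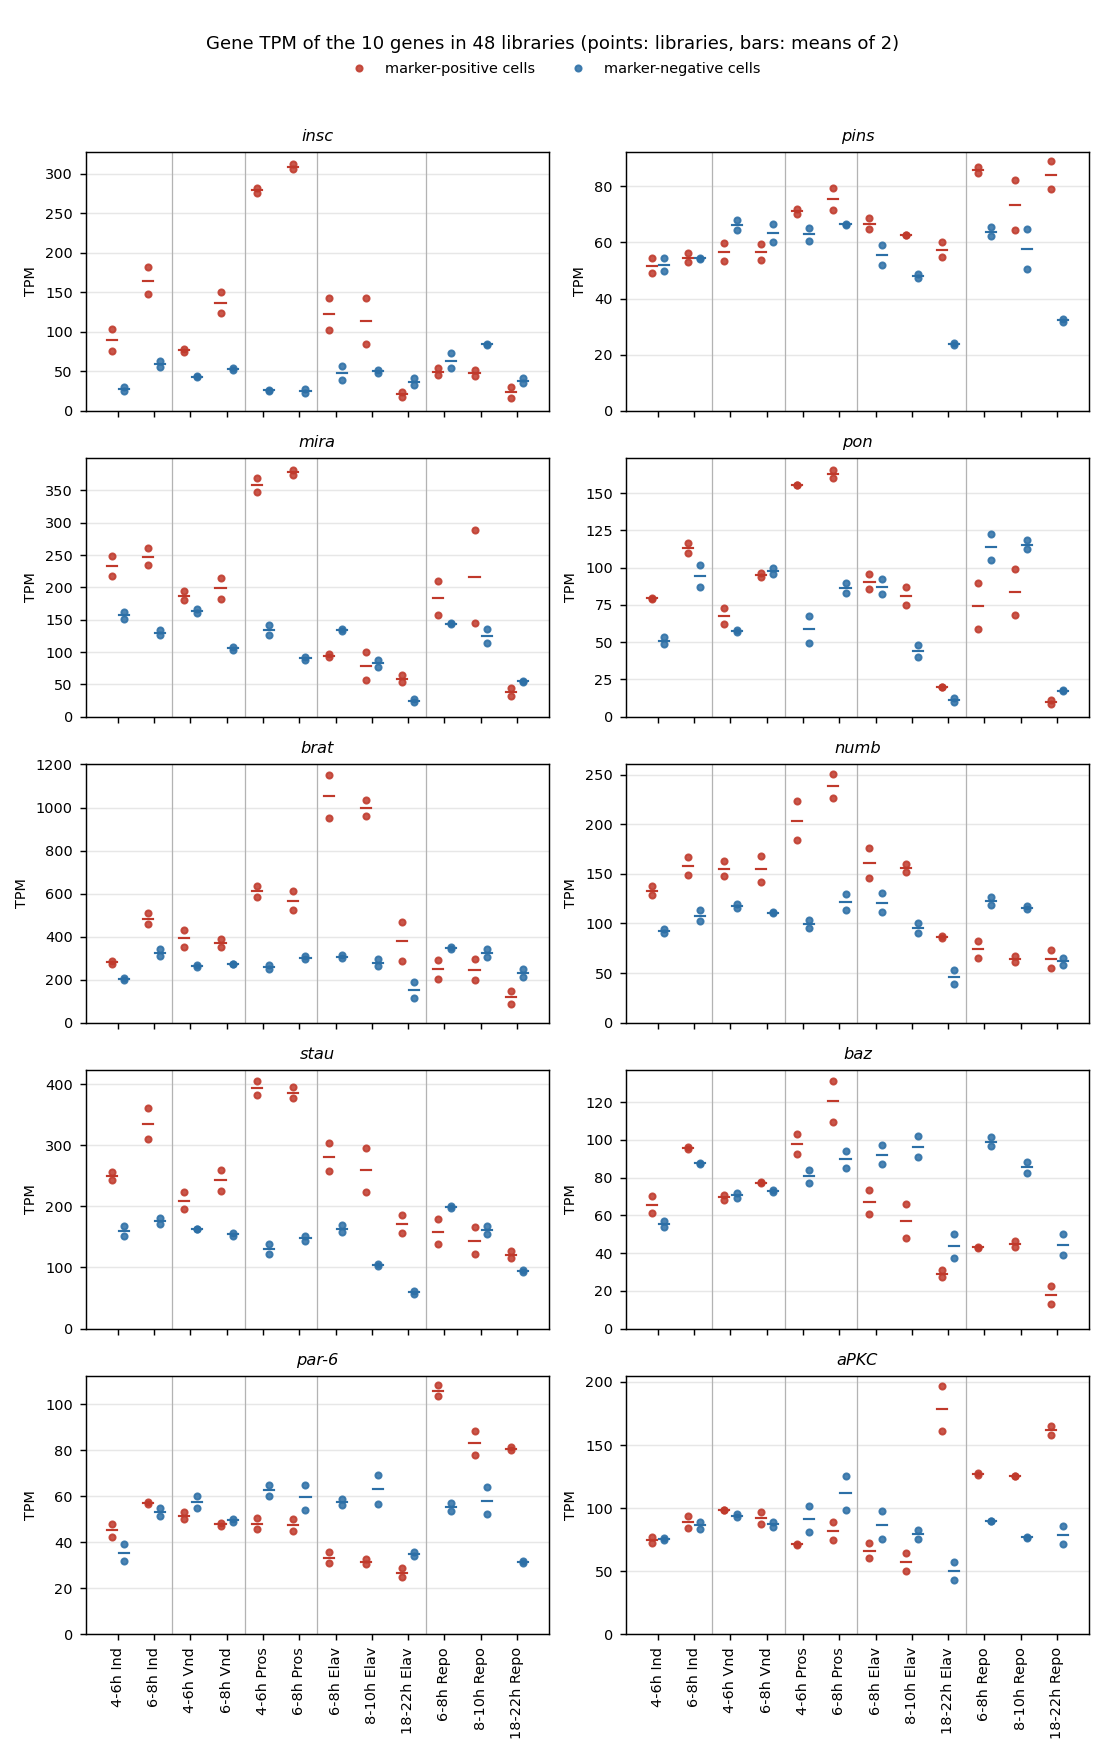
Gene TPM (vertical axes, linear from 0) of the 10 genes in the 12 sorts (horizontal axes), with each library as a point and the mean of 2 libraries as a bar, positive cells left of negative cells. insc, mira, pon, numb and stau are highest in Pros-positive cells, brat in Elav-positive cells at 6-8h and 8-10h, and par-6 in Repo-positive cells.

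insc showed the sharpest pattern. Its single transcript lies on chromosome 2R (20821262 to 20836028, minus strand, build BDGP6.54), with 4 exons. In 4-6h Pros-positive cells insc was at 275.7 and 282.3 TPM, against 25.2 and 26.8 TPM in Pros-negative cells. In 6-8h Pros-positive cells it was at 312.6 and 305.9 TPM, against 28.2 and 22.6 TPM in Pros-negative cells. The Pros-positive libraries stood above all other libraries of the series, and the Pros-negative libraries were among the lowest. insc was enriched with log2 fold changes of 3.66 (SE 0.53, adjusted p = 4.53e-05) at 4-6h and 3.68 (SE 0.53, adjusted p = 3.89e-05) at 6-8h. Both calls were kept without any 1 of their 4 libraries.

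The order of insc levels over the 24 groups began with 6-8h Pros-positive cells (309 ± 4.78 TPM, mean ± SD, n = 2 as for every group) and 4-6h Pros-positive cells (279 ± 4.67 TPM). Then came 6-8h Ind-positive cells (165 ± 23.9 TPM), 6-8h Vnd-positive cells (137 ± 18.6 TPM), 6-8h Elav-positive cells (122 ± 28.9 TPM) and 8-10h Elav-positive cells (113 ± 41.3 TPM). From the third place on, each of these neighbours overlapped with the next, as did 15 of the 23 neighbouring pairs in all. The lowest group was 18-22h Elav-positive cells at 20.8 ± 4.25 TPM, and the highest mean was 14.9 times the lowest. The first exon of insc overlaps an exon of sktl on the same strand, so reads of that exon could be assigned to either gene. sktl, which encodes a phosphatidylinositol phosphate kinase, was at 218 and 182.7 TPM in 6-8h Pros-positive cells, against 70.6 and 59.2 TPM in Pros-negative cells. Its log2 fold change there was 1.71 (SE 0.48, adjusted p = 0.0397), and how far shared reads enter the insc value was not tested.

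pins, the partner of insc at the spindle, did not follow it. Its transcript lies on chromosome 3R (27582840 to 27586376, plus strand), and its library values covered only 23.4 to 88.9 TPM. In 6-8h Pros-positive cells pins was at 79.5 and 71.5 TPM, against 66.5 and 66.4 TPM in Pros-negative cells, a log2 fold change of 0.23 (SE 0.40, adjusted p = 1). The highest groups were 6-8h Repo-positive cells (85.7 ± 1.52 TPM) and 18-22h Repo-positive cells (83.9 ± 7.09 TPM), which overlapped. In 18-22h Repo-positive cells pins was at 88.9 and 78.9 TPM, against 32.8 and 31.7 TPM in Repo-negative cells. This was called, with a log2 fold change of 1.53 (SE 0.41, adjusted p = 0.0202).

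mira encodes the adaptor that carries Prospero, Brat and Staufen to the basal side, and its 3 transcripts lie on chromosome 3R (19931799 to 19935120, minus strand). In 6-8h Pros-positive cells mira was at 381.8 and 373.9 TPM, against 88.1 and 92.8 TPM in Pros-negative cells. The log2 fold change was 2.09 (SE 0.50, adjusted p = 0.0127). At 4-6h it was at 347.4 and 368.5 TPM in Pros-positive cells, against 126.2 and 141.8 TPM in Pros-negative cells, and narrowly missed the call at 1.59 (SE 0.49, adjusted p = 0.0514). The groups did not overlap at either time. Pros-positive cells were followed by 6-8h Ind-positive (248 ± 17.9 TPM), 4-6h Ind-positive (233 ± 22.5 TPM) and 8-10h Repo-positive cells (217 ± 102 TPM), which overlapped with one another. The large spread in 8-10h Repo-positive cells came from libraries at 288.8 and 144.6 TPM.

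pon is a single-transcript gene on chromosome X (4636318 to 4639112, plus strand). It was at 155.3 and 155.7 TPM in 4-6h Pros-positive cells, against 49.8 and 67.6 TPM in Pros-negative cells, a log2 fold change of 1.60 (SE 0.44, adjusted p = 0.0253). At 6-8h the Pros-positive libraries (165.6 and 160.1 TPM) again stood above the Pros-negative libraries (83.2 and 89.8 TPM), but at 0.94 (SE 0.43, adjusted p = 0.354) pon was not called. Outside the Pros sort the highest pon levels were in marker-negative cells of the Repo sort, with 118.5 and 112.3 TPM at 8-10h and 105.3 and 122.3 TPM at 6-8h. These 2 groups overlapped with each other, and both overlapped with 6-8h Ind-positive cells (116.7 and 109.7 TPM).

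brat had the highest level of the 10 genes, and its peak lay in neurons. Its 5 transcripts lie on chromosome 2L (19133816 to 19179758, plus strand). In 6-8h Elav-positive cells brat was at 953.5 and 1149.1 TPM, against 301.3 and 312.5 TPM in Elav-negative cells. In 8-10h Elav-positive cells it was at 960.8 and 1032.9 TPM, against 296.7 and 261.7 TPM in Elav-negative cells. brat thus made up 51.6% and 52.7% of the summed TPM of the 10 genes in Elav-positive cells at these times, and between 16.2% and 36.3% in the other 22 groups. The log2 fold changes were 2.13 (SE 0.53, adjusted p = 0.00371) at 6-8h and 1.91 (SE 0.53, adjusted p = 0.0114) at 8-10h. Within each fly line of the 6-8h sort, the ratio of positive to negative cells was 3.16 in ind_1.4::GFP and 3.68 in yw. In 18-22h Elav-positive cells brat was at 288.5 and 467.5 TPM, against 188 and 114.9 TPM in Elav-negative cells. That difference, 1.18 (SE 0.52, adjusted p = 0.11), was not called.

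brat was also enriched in Pros-positive cells at 4-6h. It was at 583.6 and 636.7 TPM there, against 247.6 and 265.9 TPM in Pros-negative cells, with a log2 fold change of 1.75 (SE 0.52, adjusted p = 0.0431). The call was lost with counts made from length-scaled TPM, at 1.52 (adjusted p = 0.094). Elav-positive cells at 6-8h (1050 ± 138 TPM) and 8-10h (997 ± 51.0 TPM) overlapped, and both stood above 4-6h Pros-positive cells (610 ± 37.5 TPM) and 6-8h Pros-positive cells (567 ± 61.2 TPM). The lowest group was 18-22h Repo-positive cells at 118 ± 42.8 TPM.

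numb, whose 3 transcripts lie on chromosome 2L (9437469 to 9464184, plus strand), encodes the determinant that blocks Notch signalling in the cell that receives it. In 4-6h Pros-positive cells it was at 183.9 and 222.9 TPM, against 95.7 and 103.6 TPM in Pros-negative cells. Its log2 fold change was 1.23 (SE 0.37, adjusted p = 0.0466). At 6-8h it was at 250.1 and 226 TPM in Pros-positive cells, against 129.5 and 113.4 TPM in Pros-negative cells, which was not called at 1.0 (SE 0.37, adjusted p = 0.165). In glia numb was lower without overlap at 6-8h and 8-10h, and only the 6-8h difference was called. 6-8h Repo-positive cells held 82.3 and 65.4 TPM, against 118.1 and 126.6 TPM in Repo-negative cells, a log2 fold change of -1.32 (SE 0.37, adjusted p = 0.0127). At 8-10h Repo-positive cells held 66.8 and 61.3 TPM, against 114.3 and 117.4 TPM in Repo-negative cells. At 18-22h the groups overlapped, with 73.6 and 55.3 TPM in Repo-positive cells, against 57.8 and 65.6 TPM in Repo-negative cells.

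stau, on chromosome 2R (18117896 to 18125779, minus strand), encodes the protein that carries prospero mRNA. In 4-6h Pros-positive cells it was at 381.7 and 406 TPM, against 121.8 and 137.7 TPM in Pros-negative cells, and was enriched by 1.92 on the log2 scale (SE 0.45, adjusted p = 0.00811). At 6-8h it was at 395.1 and 377.3 TPM in Pros-positive cells, against 151.4 and 143.6 TPM in Pros-negative cells, just short of the call at 1.48 (SE 0.44, adjusted p = 0.0564). The Pros-positive groups of the 2 times overlapped, and were followed without overlap by 6-8h Ind-positive cells (335 ± 35.2 TPM). This order depended on the scale. In CPM, read counts relative to the TMM-scaled library total, 6-8h Ind-positive cells had the highest mean for mira, pon, numb, stau and baz, and 6-8h Pros-positive cells for insc. For pins the highest mean was then in 4-6h Ind-negative cells, with 6-8h and 18-22h Repo-positive cells below it.

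The Par complex genes were near level in the Pros sort. baz lies on chromosome X (17160006 to 17200728, plus strand) and was at 131.2 and 109.6 TPM in 6-8h Pros-positive cells, against 94.3 and 85 TPM in Pros-negative cells, a log2 fold change of 0.50 (SE 0.40, adjusted p = 0.844). par-6 lies on chromosome X (17703352 to 17707096, plus strand) and was at 50.2 and 44.7 TPM in those positive cells, against 64.7 and 54.2 TPM in the negative cells. aPKC lies on chromosome 2R (14944458 to 14962969, minus strand) and was at 89.1 and 74.4 TPM in those positive cells, against 125.7 and 98.5 TPM in the negative cells. The log2 fold changes of par-6 and aPKC were -0.22 (SE 0.39, adjusted p = 1) and -0.35 (SE 0.32, adjusted p = 0.927). In TPM, baz was thus higher and par-6 and aPKC lower in Pros-positive cells, and no difference passed the test.

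In glia the 3 Par complex genes parted. In 6-8h Repo-positive cells baz was at 43.4 and 42.8 TPM, against 96.8 and 101.4 TPM in Repo-negative cells, a log2 fold change of -1.79 (SE 0.41, adjusted p = 0.00241). In 18-22h Repo-positive cells par-6 was at 80 and 81.2 TPM, against 32 and 31.2 TPM in Repo-negative cells, a log2 fold change of 1.52 (SE 0.40, adjusted p = 0.0175). aPKC was at 165.4 and 157.8 TPM in 18-22h Repo-positive cells, against 86.2 and 72 TPM in Repo-negative cells, and was not called at 0.97 (SE 0.32, adjusted p = 0.0773). baz was lower in Repo-positive cells without overlap at all 3 times, and par-6 and aPKC were higher without overlap at all 3 times. The scale mattered for aPKC and par-6. From TMM-scaled counts the log2 fold changes of aPKC were 0.02 at 6-8h and 0.22 at 8-10h. None of the 10 genes exceeded 0.45 at 6-8h or 0.54 at 8-10h on that scale. The par-6 means at 6-8h were 164 CPM in Repo-positive and 121 CPM in Repo-negative cells. At 8-10h they were 90.7 ± 34.6 and 81.3 ± 30.0 CPM. The change of enrichment between consecutive times was not called for any of the 3 genes.

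aPKC had its highest mean level in late neurons, in overlap with late glia. In 18-22h Elav-positive cells aPKC was at 197.1 and 160.7 TPM, against 43.1 and 57 TPM in Elav-negative cells. The next group, 18-22h Repo-positive cells, was at 165.4 and 157.8 TPM. In the late Elav comparison the difference was called. The log2 fold change was 1.77 (SE 0.33, adjusted p = 0.000166), and the call was kept without any 1 of the 4 libraries. In 8-10h Elav-positive cells aPKC was instead at 50.4 and 64.5 TPM, below the 75.7 and 83 TPM of Elav-negative cells. par-6 was called lower in Elav-positive cells at 8-10h. It was at 32.6 and 30.7 TPM in 8-10h Elav-positive cells, against 69.2 and 56.7 TPM in Elav-negative cells, a log2 fold change of -1.17 (SE 0.40, adjusted p = 0.046).

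**Figure D2:**
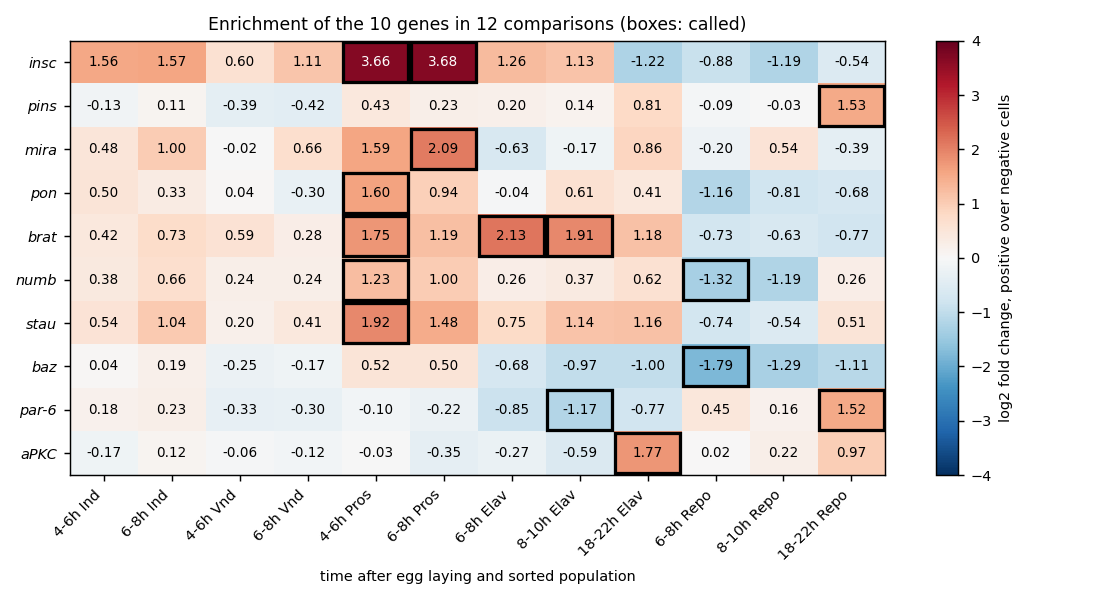
Log2 fold change of positive over negative cells for the 10 genes (rows) in the 12 comparisons (columns), with boxes around called values and colour from blue (lower) to red (higher). The Pros columns hold 7 of the 15 called values, led by insc at 3.66 and 3.68, and the Repo columns hold the called decreases of numb and baz.

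Among the 12 comparisons of positive with negative cells, the count over the 10 genes was highest in the Pros sort at 4-6h. There, 5 of the 10 genes were called enriched in Pros-positive cells (insc, pon, brat, numb and stau), against 3.60% of the 17109 genes tested. At 6-8h, 2 of the 10 were called enriched (insc and mira), against 2.27% of all genes. None was called depleted at either time. The median log2 fold change of the 10 genes was 1.41 at 4-6h and 0.97 at 6-8h, against medians of -0.20 and -0.07 over all genes tested. In TPM, 8 of the 10 had both Pros-positive libraries above both Pros-negative libraries at each time, where 18.3% of all genes did so at 4-6h and 19.5% at 6-8h. The 2 others were par-6 and aPKC. With median-of-ratios factors, another scaling of the same counts, 4 genes were called at 6-8h, and with DESeq2 5.

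Most of these Pros calls needed both replicates. Without any 1 of the 4 libraries at 4-6h, pon (log2 fold changes of 1.28 to 2.02), brat (1.54 to 1.99) and numb (0.98 to 1.43) were no longer called. stau was called only without Pros-positive replicate 1, and ranged over 1.71 to 2.17. At 6-8h, mira was called only without Pros-positive replicate 2, and ranged over 1.86 to 2.30. Each of these refits left 1 group with a single library, which was assumed to vary like the others.

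Other cell markers moved with the Pros sort. Of 5 neuroblast transcription factors, wor, ase, sna and esg were called enriched in 4-6h Pros-positive cells and dpn was not. The 5 summed to 1090 and 1220 TPM in these cells, against 238 and 261 TPM in Pros-negative cells. Of 7 neuronal genes 6 were enriched, and their sum was 2280 and 2300 TPM in Pros-positive cells, against 286 and 269 TPM in Pros-negative cells. Of 7 glial genes 4 were enriched, and their sum was 917 and 915 TPM in Pros-positive cells, against 344 and 355 TPM in Pros-negative cells. Of 6 muscle genes 2 were depleted, with sums of 375 and 422 TPM in Pros-positive cells, against 1430 and 1760 TPM in Pros-negative cells. None of 10 genes of dividing cells was called, and their sum was 2250 and 2500 TPM in Pros-positive cells, against 2060 and 2370 TPM in Pros-negative cells. None of these markers was at 0 in both libraries of a group, and their part in the values of the 10 genes was not tested.

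The columns are the tissue from which neuroblasts arise. In the column sorts none of the 10 genes was called by edgeR with TMM factors and no replicate block. With median-of-ratios factors 1 was called in 4-6h Ind (insc) and 2 in 6-8h Ind (insc and stau). For Ind, the share of all genes called in either direction was 4.49% at 4-6h and 2.33% at 6-8h, the number of the 10 genes at an unadjusted p below 0.05 was 1 and 2, and DESeq2 called 1 and 3. For Vnd, the share of all genes was 0.684% at 4-6h and 0.140% at 6-8h, the number at an unadjusted p below 0.05 was 0 and 1, and DESeq2 called 0 and 1. insc was the gene nearest to a call. It was at 75.6 and 103 TPM in 4-6h Ind-positive cells, against 30.8 and 25.2 TPM in Ind-negative cells, a log2 fold change of 1.56 (SE 0.48, adjusted p = 0.0629). In 6-8h Vnd-positive cells it was at 123.7 and 150.1 TPM, against 54.4 and 51.7 TPM in Vnd-negative cells, a log2 fold change of 1.11 (SE 0.48, adjusted p = 1). insc was above the negative cells without overlap in all 4 column sorts, with TPM ratios between 1.77 (4-6h Vnd) and 3.19 (4-6h Ind).

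In the Elav sort, 1 of the 10 genes (brat) was called higher at 6-8h, against 9.34% of all genes. At 8-10h, 1 (brat) was called higher, against 5.71%, and 1 (par-6) lower, against 7.80%. At 18-22h, 1 (aPKC) was called higher, against 9.09%. Each is 1 gene of 10, a share close to that of all genes tested. With the replicate, and so the fly line, as a block in the 6-8h fit, 2 genes were called, since insc then passed at 1.28 (adjusted p = 0.0435). At 8-10h, brat was not called without Elav-negative replicate 2 (1.55) or without Elav-positive replicate 1 (1.32), nor with counts from length-scaled TPM (1.54, adjusted p = 0.0505). par-6 was not called at that time without Elav-negative replicate 1 or without Elav-positive replicate 2 (-0.68 in each). Other markers moved with this sort. Of the 10 dividing-cell genes 5 were depleted at 6-8h, 1 at 8-10h and 5 at 18-22h, with sums of 1170 and 1170 TPM in 6-8h Elav-positive cells, against 2310 and 1950 TPM in Elav-negative cells. Of the 6 muscle genes 5, 6 and 4 were depleted at these times, with sums of 157 and 202 TPM in 6-8h Elav-positive cells, against 935 and 882 TPM in Elav-negative cells. Of the 7 glial genes 3 were enriched at 6-8h, with sums of 929 and 1080 TPM in Elav-positive cells, against 350 and 451 TPM in Elav-negative cells. Of the 5 neuroblast transcription factors, 3 were enriched (ase, sna and esg) and 1 (dpn) was depleted at 6-8h. At 8-10h 3 were enriched, and at 18-22h 1. The 5 summed to 865 and 816 TPM in 6-8h Elav-positive cells, against 328 and 336 TPM in Elav-negative cells. The part of all these markers in the values of brat, par-6 and aPKC was not tested. In a fit of the 4 libraries alone, brat and par-6 at 8-10h and aPKC at 18-22h were not called, at 1.73, -1.37 and 1.82.

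In the Repo sort, 2 of the 10 genes (numb and baz) were called lower at 6-8h, against 10.4% of all genes. None was called at 8-10h by edgeR, where 3.88% of all genes were called in either direction. There 3 of the 10 had an unadjusted p below 0.05, and DESeq2 called 3 (insc, numb and baz, all lower). At 18-22h, 2 (pins and par-6) were called higher, against 3.22% of all genes. The 6-8h comparison moved with the scaling: the median over all genes was lower by 0.37 with TMM than with median-of-ratios factors. With those factors baz was at -1.43 and still called, while numb was at -0.95 and no longer past the fold threshold. In a fit of the 4 libraries alone neither was called, with baz at -1.54 (adjusted p = 0.052) and numb at -1.05 (adjusted p = 0.167). numb was also not called without Repo-negative replicate 2 (-1.23) or without Repo-positive replicate 2 (-0.81). At 18-22h, pins and par-6 were called without Repo-positive replicate 2 (1.69 and 1.60), and in the other 3 refits with 3 libraries neither was, with ranges of 1.35 to 1.72 and 1.36 to 1.70. Of the 10 dividing-cell genes, 9 were depleted at 6-8h, with sums of 1320 and 1200 TPM in Repo-positive cells, against 2410 and 2400 TPM in Repo-negative cells. Of the 7 neuronal genes, 6 were enriched, with sums of 736 and 496 TPM in Repo-positive cells, against 271 and 309 TPM in Repo-negative cells. Their part in the values of numb and baz was not tested.

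The later contrasts ask how levels moved as the nervous system matured. Between 8-10h and 18-22h, pon fell in all 4 groups that were sampled at both times. It was at 19.7 and 19.7 TPM in 18-22h Elav-positive cells, against 86.9 and 74.7 TPM in 8-10h Elav-positive cells. In Repo-positive cells it was at 8.4 and 11.5 TPM at 18-22h, against 99 and 68.1 TPM at 8-10h. The log2 fold changes of pon were -1.98 (SE 0.44, adjusted p = 0.00346) in Elav-positive, -1.78 (SE 0.44, adjusted p = 0.00734) in Elav-negative, -2.62 (SE 0.46, adjusted p = 0.000198) in Repo-positive and -2.75 (SE 0.46, adjusted p = 4.4e-05) in Repo-negative cells. mira fell with pon in Repo-positive cells, with 32 and 44.4 TPM at 18-22h, against 288.8 and 144.6 TPM at 8-10h. Its log2 fold change was -2.06 (SE 0.50, adjusted p = 0.00473).

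In Elav-positive cells insc was at 17.8 and 23.8 TPM at 18-22h, against 142.6 and 84.3 TPM at 8-10h. It fell by 2.58 on the log2 scale (SE 0.50, adjusted p = 0.000956). aPKC rose in the same cells by 1.89 (SE 0.33, adjusted p = 0.00039). In Elav-positive cells 2 of the 10 genes thus fell (insc and pon), against 4.25% of all genes, and 1 rose, against 5.33%. The genes that fell numbered 1 in Elav-negative cells, against 4.80% of all genes, 2 in Repo-positive cells, against 5.05%, and 1 in Repo-negative cells, against 8.14%. The dividing-cell genes were also lower late: they summed to 217 and 253 TPM in 18-22h Elav-positive cells, against 1260 and 920 TPM at 8-10h, and to 295 and 423 TPM in 18-22h Repo-positive cells, against 1460 and 960 TPM at 8-10h. Their part in these falls was not tested. The Elav cells came from yw at 8-10h and from vnd-lexA/VC:FNLDD at 18-22h, so time and fly line cannot be told apart there. The Repo cells came from the same line at both times.

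Several of the late changes rested on single libraries. Without 8-10h Elav-positive replicate 1, insc (-1.19) and pon (-0.99) were no longer called in Elav-positive cells, and without 18-22h Elav-positive replicate 1 pon was not (-1.75). In Elav-negative cells pon was lost without 8-10h replicate 1 (-1.24) or 18-22h replicate 2 (-1.29). In Repo-positive cells mira was lost without 8-10h replicate 1 (-0.90) or 18-22h replicate 1 (-1.91). The calls of pon in both Repo fractions and of aPKC in Elav-positive cells were kept in all 4 refits each. With DESeq2 and with median-of-ratios factors, 3 genes were called in Repo-negative cells (insc, mira and pon, all lower) and 2 in Elav-negative cells (mira and pon, both lower).

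**Figure D3:**
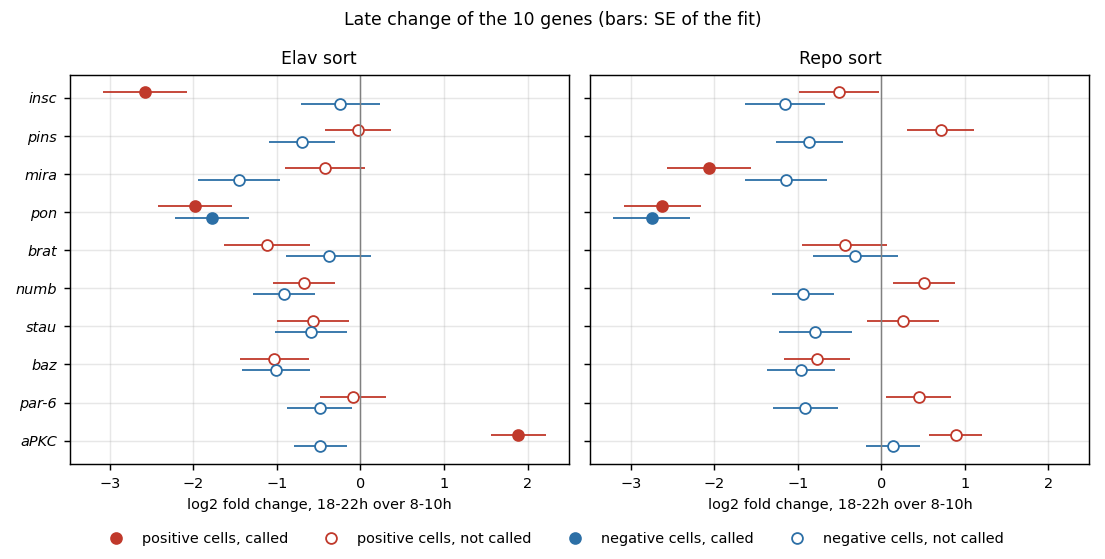
Log2 fold change of the 10 genes between 8-10h and 18-22h (horizontal axes, ± SE of the fit), in positive (red) and negative cells (blue) of the Elav and Repo sorts, filled where called. pon lies left of 0 in all 4 groups (-1.98, -1.78, -2.62 and -2.75), and aPKC in Elav-positive cells lies right of 0 at 1.89.

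The enrichment itself differed between times for 1 of the 10 genes in Elav cells. The enrichment of aPKC at 18-22h exceeded that at 8-10h by 2.37 on the log2 scale (SE 0.46, adjusted p = 0.01), in a contrast that called 0.386% of all genes higher. The contrast for insc went the other way at -2.35 (SE 0.68, adjusted p = 0.127) and was called only with median-of-ratios factors, the receptor covariate and DESeq2. Without 8-10h Elav-negative replicate 1 or 8-10h Elav-positive replicate 2, aPKC was not called, at 2.11 and 2.04. No gene of the machinery was called for a change of enrichment in Repo cells between 8-10h and 18-22h, where 0.321% of all genes were called, 3 of the 10 had an unadjusted p below 0.05, and DESeq2 called 3 (pins, numb and par-6, all higher).

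In Pros-positive cells the median log2 fold change of the 10 genes at 6-8h over 4-6h was -0.02, with a range of -0.27 to 0.29. No gene was called there, and 0.0117% of all genes were. The same count of 0 held for the change of enrichment in Pros (0.00584% of all genes called), Ind (0.0175%) and Vnd cells (0%), for that between 6-8h and 8-10h in Elav (0.0117%) and Repo cells (0.0117%), and for the levels in Pros-negative (0.00584%), Vnd-positive (0.00584%) and Vnd-negative cells (0.0234%). In these 9 contrasts no member had an edgeR p below 0.05 before adjustment, and DESeq2 called none.

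Pros-positive cells were next set against the positive cells of the other sorts at 6-8h. These 4 contrasts share the same 2 Pros-positive libraries. In each of them the fly line also differs between the sorts, so line and cell type cannot be told apart. Against Elav-positive cells mira was called higher (1.93, SE 0.50, adjusted p = 0.013), 1 gene of 10 against 2.64% of all genes. mira was at 381.8 and 373.9 TPM in Pros-positive cells, against 97.2 and 91.9 TPM in Elav-positive cells. brat was lower in Pros-positive cells in TPM without overlap, but at -1.19 (SE 0.52, adjusted p = 0.202) was not called. Against Repo-positive cells, insc (2.64, SE 0.50, adjusted p = 0.000727), numb (1.71, SE 0.38, adjusted p = 0.00316) and baz (1.63, SE 0.41, adjusted p = 0.00952) were higher, 3 genes of 10 against 5.41% of all genes. par-6 was at -1.21 (SE 0.40, adjusted p = 0.0526) there, with 50.2 and 44.7 TPM in Pros-positive cells, against 108.1 and 103.4 TPM in Repo-positive cells.

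Against Ind-positive cells none of the 10 was called, where 3.26% of all genes were, 2 of the 10 had an unadjusted p below 0.05 and DESeq2 called none. Against Vnd-positive cells 7 of the 10 were called higher (all but brat, par-6 and aPKC), against 9.72% of all genes. That contrast was one-sided, with 1663 of all genes called higher and 61 lower. Of the 24 further genes of polarity and division described below, 16 were also called higher in it. The calls of that contrast moved with the scaling and with the test. Its median over all genes was higher by 0.47 with TMM than with median-of-ratios factors. With the latter, edgeR still called only insc (1.52) and pon (1.11), and mira (1.23), stau (1.04), baz (0.99), numb (0.90) and pins (0.75) were not called. DESeq2 called 5 of the 10 genes, whose median log2 fold change was 1.02 there and in edgeR with median-of-ratios factors. The receptor genes had median levels of 0.584 and 4.616 TPM in the Pros-positive libraries, against 14.468 and 10.278 TPM in the Vnd-positive libraries, and their part in this contrast was not tested beyond the covariate fit, which called 4 genes. Each of the 7 calls was kept only without Pros-positive replicate 2, with ranges such as 1.76 to 2.27 for insc and 0.95 to 1.48 for pins. mira against Elav-positive cells was likewise called only without that library, ranging over 1.70 to 2.12. Against Repo-positive cells, insc was called in all 4 refits, numb was lost without Pros-positive replicate 1 (1.44), and baz was called only without Pros-positive replicate 2 (1.92).

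The negative cells of the same sorts were compared in the same way. Only Pros-negative cells were sorted to lack Pros-positive cells, so these contrasts do not isolate the fly line. Of the 10 genes edgeR called none in Pros-negative against Elav-negative (0.134% of all genes called), Repo-negative (0.859%), Ind-negative (0.164%) or Vnd-negative cells (0.0292%). The median log2 fold changes of the 10 genes were -0.25, -0.73, -0.68 and 0.61, with lowest values of -1.25, -1.92, -1.88 and -0.57. Unadjusted p-values below 0.05 numbered 1, 4, 3 and 1 of 10, and DESeq2 called 1, 2, 1 and 0, all lower in Pros-negative cells.

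**Figure D4:**
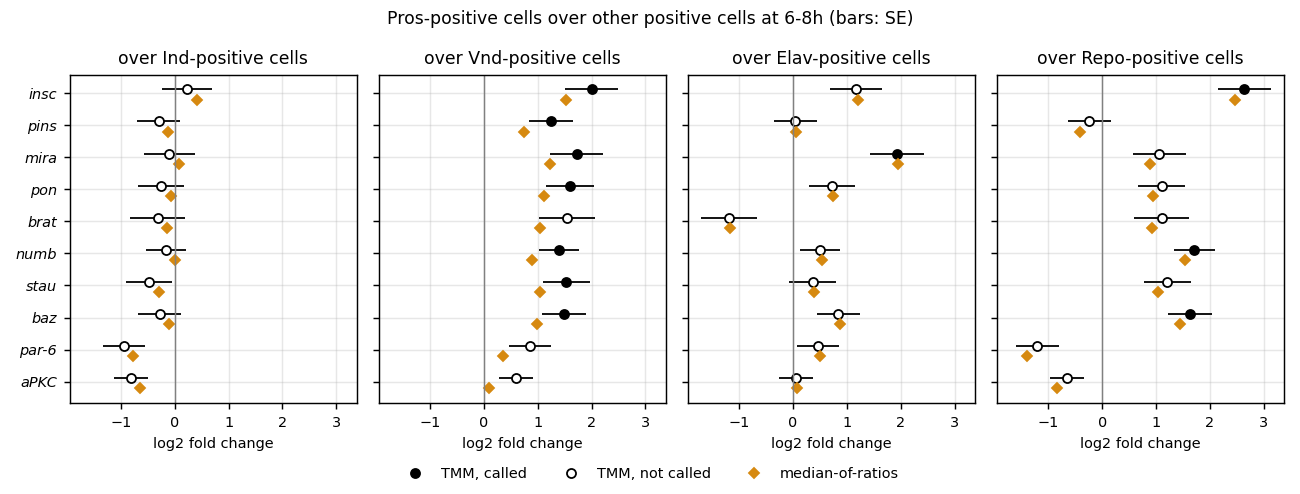
Log2 fold change of Pros-positive cells over Ind-, Vnd-, Elav- and Repo-positive cells at 6-8h (horizontal axes) for the 10 genes, with TMM (circles ± SE, filled where called) and with median-of-ratios factors (diamonds). The diamonds lie to the left of the circles in the contrast with Vnd-positive cells, where insc is at 2.0 with TMM and 1.52 with the other factors.

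A list of 24 further genes of polarity, spindle orientation and basal transport was examined in the same comparisons. In 4-6h Pros-positive cells 2 of the 24 were enriched, spdo and tws, against 3.60% of all genes, and in 6-8h Pros-positive cells 1, spdo, against 2.27% of all genes. None was depleted. With median-of-ratios factors 6 of the 24 were enriched at 4-6h, against 896 of the 17109 genes tested. At 6-8h 2 were, against 554 of all genes tested. spdo encodes Sanpodo, the membrane protein that Numb regulates in Notch signalling. It was at 481.5 and 441.5 TPM in 6-8h Pros-positive cells, against 45.7 and 39.7 TPM in Pros-negative cells, a log2 fold change of 3.46 (SE 0.51, adjusted p = 6.12e-05). At 4-6h spdo was at 344.3 and 404.6 TPM in Pros-positive cells, against 35.9 and 45.4 TPM in Pros-negative cells, a log2 fold change of 3.38 (SE 0.51). tws, a regulatory subunit of protein phosphatase 2A, was at 84.9 and 91.1 TPM in 4-6h Pros-positive cells, against 46.9 and 50 TPM in Pros-negative cells, a log2 fold change of 1.16 (SE 0.34, adjusted p = 0.0391). The median log2 fold change over the 24 genes was 0.65 at 4-6h and 0.50 at 6-8h, against -0.20 and -0.07 over all genes.

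In neurons and glia other genes of that list were called, named here after their values were seen. Higher and lower here mean positive against negative cells of the same time. In 6-8h Elav-positive cells 3 of the 24 were higher (Gbeta13F, Ggamma1 and Khc-73), against 9.34% of all genes. There 2 were lower (aurA and bora), against 7.67%, and both counts were close to the shares of all genes. In 18-22h Elav-positive cells 4 were higher (Gbeta13F, Khc-73, flfl and AP-2alpha), against 9.09% of all genes, and 4 lower (l(2)gl, Galphai, loco and aurA), against 11.8%. In 8-10h Elav-positive cells 1 of the 24 was higher (Khc-73), against 5.71% of all genes. In 6-8h Repo-positive cells 1 was higher (AP-2alpha), against 7.36% of all genes, and 5 lower (aurA, polo, bora, Pp4-19C and jar), against 10.4%. In 8-10h Repo-positive cells 1 was lower (bora), against 2.08% of all genes. In 18-22h Repo-positive cells 5 were higher (scrib, mud, Galphai, loco and AP-2alpha), against 3.22% of all genes, and 1 lower (bora), against 2.63%. scrib, which keeps epithelial polarity and septate junctions, was at 675.4 and 646 TPM in those Repo-positive cells, against 185.8 and 175.8 TPM in Repo-negative cells. Galphai, the G protein subunit that binds Pins, was at 244.3 and 227.9 TPM in them, against 83.4 and 75.2 TPM in Repo-negative cells. loco, a regulator of G protein signalling, was at 186.5 and 195.7 TPM, against 47.5 and 56 TPM in Repo-negative cells.

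In 3 genes the share of single transcripts was highest in late neurons. The transcripts described were chosen after their values were seen. Shares below are percent of the gene's TPM as estimated by Salmon and carry no test. brat-RC, with a 3' untranslated region of 8499 bases against 1308 bases in brat-RB and the same coding length of 3111 bases, took 63.3% and 63.4% in 18-22h Elav-positive cells, against 27.0% and 33.3% in Elav-negative cells. It took 55.6% and 45.2% in 6-8h Elav-positive cells, against 21.1% and 19.3% in Elav-negative cells. The positive libraries were above the negative libraries at all 3 times of the Elav sort. The share was also high in late glia. In 18-22h Repo-positive cells brat-RC took 48.1% and 47.9%, above the 41.9% and 47.6% in 8-10h Elav-positive cells. The level of brat-RC was 529.7 and 519.3 TPM in 6-8h Elav-positive cells, and 182.6 and 296.5 TPM in 18-22h Elav-positive cells.

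numb-RB starts upstream of the other numb transcripts (9437469, against 9449830 for numb-RA) and has a shorter coding part (1545 against 1668 bases, stop codon not counted). It took 58.5% and 51.7% of numb in 18-22h Elav-positive cells, against 31.9% and 41.7% in Elav-negative cells. At 8-10h it took 27.1% and 27.1% in Elav-positive cells, against 8.5% and 10.1% in Elav-negative cells. numb-RA made up the median share of 78.6% over all groups and only 14.1% and 24.4% in 18-22h Elav-positive cells. The sum over numb transcripts was not called in any of the 3 Elav comparisons, with log2 fold changes of 0.26, 0.37 and 0.62.

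aPKC-RJ has the longest coding part of the aPKC transcripts, 2874 bases against 1818 in aPKC-RA. In 18-22h Elav-positive cells it took 40.0% and 42.8% of aPKC, against 4.0% and 9.0% in Elav-negative cells. Its level was 78.9 and 68.8 TPM in 18-22h Elav-positive cells and 10.6 and 22.4 TPM in 8-10h Elav-positive cells. In 18-22h Repo-positive cells, where aPKC was nearly as high, aPKC-RJ took only 8.2% and 7.4%, and aPKC-RK, with a coding part of 1557 bases, took 36.8% and 41.1%. The transcript with the largest share thus differed between late neurons and late glia among these 2 transcripts. aPKC has 12 annotated transcripts that share most exons, and the median gap between replicates was 3.00 percentage points for aPKC-RJ and 6.40 for aPKC-RK. By share of reads, which weights long transcripts more, aPKC-RJ reached 56.3%, brat-RC 79.2% and numb-RB 46.2% in 18-22h Elav-positive cells, again the highest groups.

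**Figure D5:**
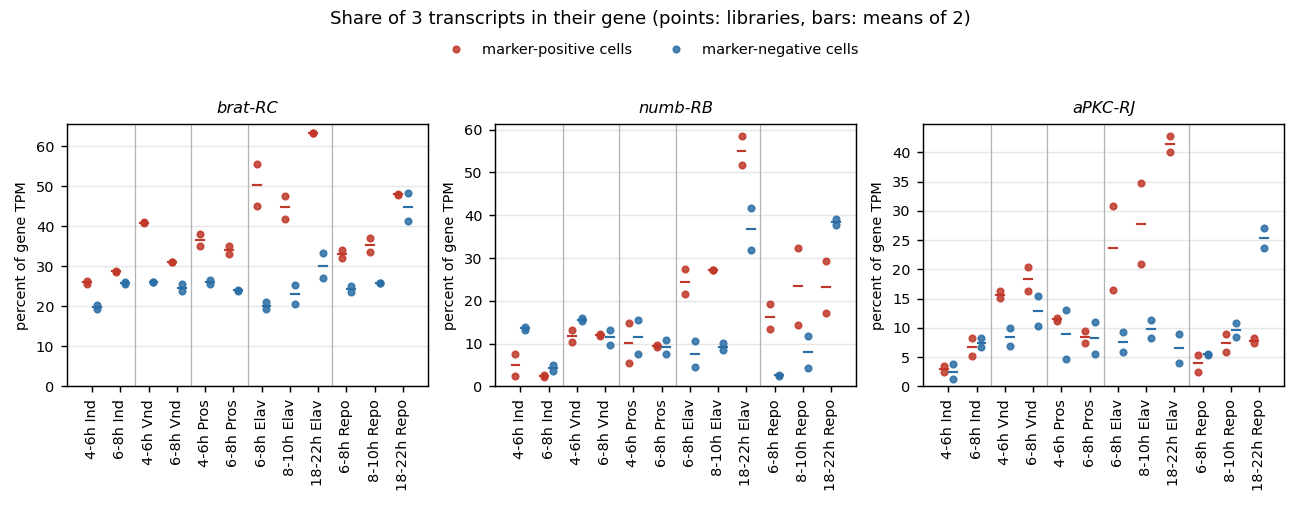
Share of brat-RC, numb-RB and aPKC-RJ in the TPM of their gene (vertical axes, percent) in the 12 sorts (horizontal axes), with libraries as points and means as bars, positive cells left of negative cells. All 3 are highest in 18-22h Elav-positive cells, at means of 63.3%, 55.1% and 41.4%.

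The pattern of each gene over the 24 groups was compared with that of 16075 genes that reached 10 TPM in a group, by Pearson's r of log2 (mean TPM + 1). These are descriptions across groups, and groups share embryos and sorts. insc was most like spdo (r = 0.950), ase (0.943) and gsb-n (0.934), 2 of them neural transcription factors. mira was most like Cse1 (0.903), dpn (0.902) and CG12708 (0.890). pon was closest to Set (0.978), Lam (0.974), which encodes the B-type lamin, and barr (0.973), a condensin subunit. pins was closest to Shc (0.923), cpa (0.903) and alphaTub84B (0.866). brat was closest to CG12236 (0.971), CG11030 (0.951) and the Wnt ligand gene Wnt5 (0.942). numb was closest to Psc (0.940), Acf (0.939) and flfl (0.935), the last a subunit of the phosphatase that acts on Miranda. stau was closest to seq (0.960), CG17724 (0.954) and Myb (0.948), and baz to wg (0.931), mi (0.920) and Gcna (0.911). par-6 was closest to CG31195 (0.917), Cortactin (0.895) and Manf (0.893), and aPKC to CG44838 (0.791), Syx7 (0.781) and CalpA (0.778). Among the 10 genes themselves, numb and stau were most alike (0.90), followed by mira and pon (0.83), and baz and aPKC least alike (-0.48).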

How the data were processed

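RNA of FACS-sorted, fixed cells was sequenced in 48 ribodepleted paired-end libraries, grouped by the population, fraction and time in the labels. The authors quantified reads with Salmon 0.8.1 against an RSEM 1.3.0 reference of BDGP release 6 (dm6) and FlyBase annotation, with a strand-specific library type. Per library, the deposited files give estimated counts per transcript, which are not normalized, and TPM, the authors' length-normalized share of transcripts, with the same total in each library. Tables of the authors' DESeq2 comparisons hold their fold changes and p-values and were not used. Groups are biological duplicates, and p-values measure the spread between such duplicates.

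Of 34428 transcripts, 34123 were matched to genes of Ensembl 115 (BDGP6.54), 99.7% with the same length. The 305 others held 0.241% to 0.502% of reads and were left out. Estimated counts were summed per gene and rounded. edgeR 4.0.16 in R 4.3.3 was fitted to all libraries with a mean per group, TMM factors and filterByExpr, which left 17109 genes and 24 residual degrees of freedom. Quasi-likelihood tests were adjusted by Benjamini-Hochberg over these genes in each of 35 contrasts. The procedure was tested on simulated data. Alternatives were median-of-ratios factors, no filter, length-scaled TPM, the receptor level as covariate, a replicate block, the 4 libraries alone, DESeq2 1.42.0 and leaving out each library. The replicate number marks a fly line only in 6-8h Elav cells, where the deviations of same-numbered libraries correlated at 0.523. Named genes were the 10 members, their partners called in a Pros comparison (at most 8), sorting markers, 5 neuroblast factors and, per member, the 3 genes of most similar pattern. The members and lists were chosen with earlier results of these data known. No sequences or motifs were analysed here.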

Additional observations from a re-analysis of the deposited data

Results flagged for a closer look

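The enrichment of aPKC in Elav-positive over Elav-negative cells differed between 18-22h and 8-10h by 2.37 on the log2 scale (SE 0.46, edgeR adjusted p = 0.01). At 18-22h the log2 fold change was 1.77 and at 8-10h it was -0.59. All 4 libraries of each time lay in that order, with aPKC at 197.1 and 160.7 TPM in 18-22h Elav-positive cells, against 43.1 and 57 TPM in Elav-negative cells, and at 50.4 and 64.5 TPM in 8-10h Elav-positive cells, against 75.7 and 83 TPM in Elav-negative cells. The test of the difference between times singled it out. The fly line changed with the time, and the 2 cannot be told apart.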

How the results depend on the processing

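Over the 34 called values, no alternative turned a direction. Among the 120 values of the 10 genes in the 12 comparisons, signs changed for 8 with median-of-ratios factors, 8 with DESeq2, 7 with the receptor covariate, 5 in fits of the 4 libraries alone and 1 with length-scaled TPM, all at sizes of 0.2 or less. Calls lost numbered 6 with median-of-ratios factors, 4 with DESeq2, 3 with the covariate, 2 with length-scaled TPM, 5 of 15 with the 4 libraries alone and 0 without the filter on low counts. The cause was not tested.

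Counts of genes called, of 10, moved as follows. In Ind cells, median-of-ratios factors gave 1 at 4-6h and 2 at 6-8h, DESeq2 1 and 3, the receptor covariate 1 and 2, and the 4 libraries alone 1 and 1. For Vnd at 6-8h, DESeq2, the covariate and the 4 libraries alone each gave 1. For Pros at 6-8h, median-of-ratios factors gave 4 and DESeq2 5. For Elav at 6-8h, median-of-ratios factors, DESeq2 and the covariate each gave 2. At 8-10h these 3 gave 4 each for Elav, where length-scaled TPM gave 1 and the 4 libraries alone 0. At 18-22h they gave 4, 4 and 6 for Elav, where the 4 libraries alone gave 0. For Repo, median-of-ratios factors gave 1 at 6-8h and 2 at 8-10h, DESeq2 1 and 3, the covariate 3 at 8-10h, length-scaled TPM 1 at 8-10h, and the 4 libraries alone 0 at 6-8h and 4 at 18-22h. With median-of-ratios factors, DESeq2 and the covariate, the late change of enrichment gave 2, 2 and 2 for Elav and 2, 3 and 1 for Repo, late Elav-negative cells gave 2, 2 and 4 (2 with length-scaled TPM), late Repo-negative cells 3, 3 and 3, and Pros-positive cells 2, 3 and 3 over Elav-positive and 5, 5 and 8 over Repo-positive cells. Over Vnd-positive cells, median-of-ratios factors gave 2, DESeq2 5 and the covariate 4.

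With the replicate block they were 1 in 4-6h Ind, 2 in 6-8h Elav, 2 in 8-10h Repo and 2 in 18-22h Elav, and brat was lost in 4-6h Pros (adjusted p = 0.068). The correlation behind the pairing ranged from -0.552 (18-22h Elav) to 0.722 (8-10h Elav), and outside 6-8h Elav the labels do not say whether same-numbered libraries share a sort.

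Leaving out 1 library gave counts of 0 to 1 in 4-6h Ind, 1 to 2 in 4-6h and 6-8h Pros, 1 in 6-8h Elav, 1 to 3 in 6-8h Repo and 8-10h Elav, 1 to 4 in 18-22h Elav, 0 to 2 in 18-22h Repo and for the late change of Elav enrichment, 1 to 5 in late Elav-positive, 0 to 8 in late Elav-negative, 1 to 2 in late Repo-positive and 1 in late Repo-negative cells, and 0 to 1, 1 to 4 and 0 to 8 over Elav-, Repo- and Vnd-positive cells. Of 140 refits of called values, 73 kept the call and 67 lost it. Precision is limited by 2 libraries a group, and the 10 genes together held at least 49758 reads in each library (fewest in 18-22h Elav-negative replicate 2).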
